A study of Rattus norvegicus with 12 samples.

Results

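Gene expression was measured in the prefrontal cortex of 15-day-old female Sprague-Dawley rats whose mothers had received betamethasone or saline in mid-gestation, and the comparison between those 2 kinds of litter is described here. It takes in 8 of the 12 samples of the series: 4 labelled as primed, with betamethasone before birth and saline after it, and 4 controls with saline at both times. Members were chosen by sample title, and each was read from its own dye channel of its array, over all non-control probes. In the betamethasone group the dam was given 2 injections of betamethasone at 0.4 mg/kg each on gestational day 15, and the pup was given saline on postnatal day 14. In the control group the dam received the saline vehicle, and the pup received saline on postnatal day 14. The other 4 samples came from pups with the same prenatal betamethasone that were given ketamine at 35 mg/kg on postnatal day 14. They entered the normalization, the probe filter and the choice of the brightest probe. In the statistical model they shared the estimate of the spread and the dye and array terms. Their values are set beside the others where named. Litters were culled to 4 females, and the labels state that the pups treated on postnatal day 14 were rats showing infantile spasms. They do not say which samples came from the same litter or whether the controls had spasms. Where replicates share a litter, the p-values below treat related pups as independent samples.

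Betamethasone is a synthetic glucocorticoid given to mothers at risk of preterm birth, because it crosses the placenta and speeds the maturation of the fetal lung. It acts on the glucocorticoid receptor, a nuclear receptor that moves to the nucleus when it binds a steroid and then raises or lowers the transcription of its targets. In the rat, prenatal betamethasone is used to make pups more sensitive to spasms in a model of infantile spasms, an epilepsy of the first year of life. The title of the series puts the question as one about synaptic transmission, so the genes of glutamate and GABA signalling are described after the genes that passed the test.

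The sequences of 6 array probes are shown first, because the results turn on them. Each probe is a DNA strand of 60 bases that binds the labelled RNA of 1 gene or of a close copy. The highest change past the threshold belonged to the probe for Ccng1, which encodes cyclin G1, a p53-induced protein that works with protein phosphatase 2A in the response to DNA damage. It lies on the minus strand of the rn4 rat genome at chr10:25778638-25778912, a span of 275 bases, so the 60 bases come from more than 1 exon.
Ccng1: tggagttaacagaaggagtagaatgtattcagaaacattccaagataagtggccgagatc

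The next 5 probes belong to a single group of copies. Hmgb1 encodes a chromatin protein that bends DNA and that also acts as an alarm signal outside the cell, and the rat genome holds many processed copies of it. The first 4 passed the threshold of the test and the fifth, for the pseudogene Hmgb1-ps33, did not. Capitals mark the 37 bases that are identical in all 5 probes among the 44 aligned positions that all of them cover.
LOC690521: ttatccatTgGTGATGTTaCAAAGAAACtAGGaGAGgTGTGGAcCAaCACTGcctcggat
ENSRNOT00000046984: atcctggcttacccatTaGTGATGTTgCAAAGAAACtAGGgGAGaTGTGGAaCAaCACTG
ENSRNOT00000051642: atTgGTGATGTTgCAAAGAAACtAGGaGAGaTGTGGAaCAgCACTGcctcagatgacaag
A_64_P123549: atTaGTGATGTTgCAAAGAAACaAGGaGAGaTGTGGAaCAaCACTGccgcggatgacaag
Hmgb1-ps33: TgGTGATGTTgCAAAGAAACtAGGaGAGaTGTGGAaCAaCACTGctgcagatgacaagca
In rn4 they lie at chr3:144762915-144762974, chr16:28508823-28508882, chr3:76240184-76240243, chr1:16798969-16799028 and chr1:228589905-228589964, in the order shown. LOC690521 is on the plus strand and the other 4 are on the minus strand. No annotation of exons or untranslated regions in that build was used here.

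Each array carried 2 pups of 1 group, odd replicates in the green Cy3 dye and even replicates in the red Cy5 dye, so the 8 samples came from 4 arrays. Between 71.4% and 79.3% of the non-control spots were well above background, and none was saturated. Within a group the samples correlated between 0.976 and 0.996. The control arrays stood apart from the betamethasone arrays. Both control arrays were on 1 slide and the arrays of both betamethasone groups on another, read with different versions of the scanner software, so slide and prenatal treatment cannot be told apart. The measured log ratios of the spiked-in control RNAs rose with slopes of 0.492 and 0.542 on the control arrays and of 0.873 and 0.881 on the betamethasone arrays. The median SD over 4 samples was 0.15 (log2) in controls and 0.101 in the betamethasone group. The means of the 2 arrays of a group differed by a median of 0.155 in controls and 0.063 in the betamethasone group. The number of arrays limits the precision, and a log2 change had a standard error of 0.146 at the median.

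Markers of cortex were present in the tissue, but presence alone does not set it apart from other brain regions. Of the 27 tested genes of excitatory neurons and cortical layers, 26 were well above background in all 8 samples. Tbr1 and Slc17a7, which mark cortical projection neurons and their glutamate transport, were among them, with log2 changes of 0.09 and 0.08. By the same measure 14 of 14 tested striatum genes, 14 of 14 of thalamus and 10 of 10 of olfactory bulb were above background. So were 9 of 10 hippocampus genes, 14 of 16 of cerebellum and 10 of 11 of pituitary and hypothalamus. Of 18 listed choroid plexus genes only 8 could be tested. The thyroxine carrier Ttr varied between samples, from 8.21 to 9.61 in controls and from 7.32 to 8.91 in the betamethasone group. In bulk tissue, fewer cells of a type and less RNA per cell cannot be told apart.

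Of 18645 genes tested, 46 passed the threshold, which was an adjusted p of 0.05 by limma with Benjamini-Hochberg adjustment. That is 0.247% of the genes tested. Of these, 28 were higher after betamethasone (0.15% of all tested) and 18 were lower (0.0965%). A gene symbol was available for 29 of them, 19 higher and 10 lower, and the other 17 are known only by a probe, a transcript or a locus name. Most changes among the 46 were moderate, with a median absolute log2 change of 0.79 and a smallest of 0.50. Before adjustment 2174 genes had p under 0.05 (11.7%), 1263 higher (6.77%) and 911 lower (4.89%). In 3354 genes (18%) all 4 samples of a group lay above all 4 of the other, 1974 higher (10.6%) and 1380 lower (7.4%). The median log2 change of all tested genes was 0.03, and 56% of them were higher after betamethasone.

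The number of genes past the threshold depended on single samples. Leaving out control sample 1 gave 8 genes and leaving out control sample 3 gave 12, while dropping control sample 2 or 4 gave 41 or 44. Leaving out betamethasone samples 1 to 4 in turn gave 14, 3, 6 and 11. Dropping the array that held control samples 1 and 2 gave 265 genes, and dropping that of control samples 3 and 4 gave 317. Dropping a betamethasone array gave 15 (samples 1 and 2) or 16 (samples 3 and 4). A model of only these 8 samples gave 246 genes, 1.32% of 18684, with all 46 among them. The share of calls that were higher was 60.9%. It was 71.6% of 88 calls on the scanner's own processed signals and 20% of 15 calls on the deposited value table. With array means in place of single pups 3 genes passed. In a separate setting, where each array was set to an equal median intensity, 0 passed (379 genes had an unadjusted p under 0.05 there).

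**Figure D1:**
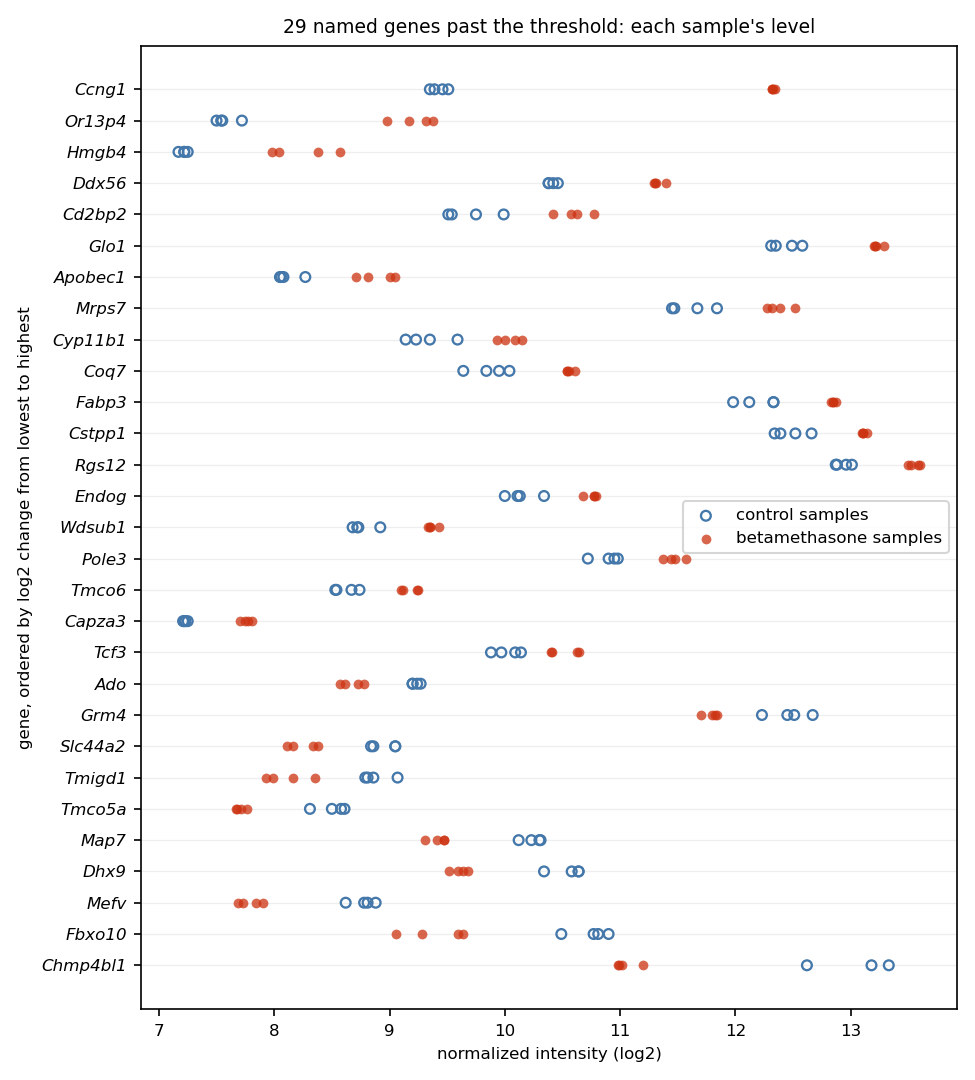
Normalized intensity (log2, x axis) of each control sample (open circles) and each betamethasone sample (filled circles) for the 29 named genes past the threshold, ordered by log2 change from Chmp4bl1 at the bottom to Ccng1 at the top. In each of these genes the samples of both groups do not overlap, and the gap is widest for Ccng1, with controls between 9.35 and 9.51 and betamethasone samples between 12.32 and 12.34.

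Ccng1, the cyclin G1 gene, was the 1 call in the list of p53 targets. Its normalized intensity on the log2 scale was 9.46, 9.39, 9.51 and 9.35 in the 4 controls and 12.32, 12.34, 12.32 and 12.33 in the 4 betamethasone samples. All betamethasone samples were high and lay within a narrow range, and the groups were far apart. The log2 change was 2.90 ± 0.222 (SE, n = 4 and 4, 95% confidence interval 2.41 to 3.39), or 7.48-fold, with an adjusted p of 0.000378 by limma. It passed the threshold in 24 of 25 alternative settings, including the array means (adjusted p 0.00418) and the 8 samples alone (adjusted p 5.39e-06). The exception set every array to an equal median intensity and gave an adjusted p of 0.787. Ccng1 rested on 1 probe.

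The promoter of Ccng1 is shown because the gene is a known p53 target and had the highest change past the threshold. RefSeq places the 250 bases before its start at chr10:25684877-25685126 of the GRCr8 assembly, on the minus strand. Capitals mark the only match to the p53 decamer, which was searched by its consensus on both strands and ends 223 bases before the start.
Ccng1 promoter: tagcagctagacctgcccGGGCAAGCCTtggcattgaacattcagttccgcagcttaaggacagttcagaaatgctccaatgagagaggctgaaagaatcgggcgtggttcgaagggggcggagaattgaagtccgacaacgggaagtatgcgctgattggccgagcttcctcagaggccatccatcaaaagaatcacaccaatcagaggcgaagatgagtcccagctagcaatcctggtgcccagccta
The same decamer occurs in 6.56% of the 27457 promoters of the table and in 6 of 17 promoters of the p53 target list. It occurs in 2 of the 17 promoters found for the higher named genes, those of Ccng1 and Capza3, and in 2 of 8 for the lower ones, Dhx9 and Tmco5a. The hexamer AGAACA, a part of the glucocorticoid receptor's element, was present on either strand in 17.1% of all promoters, in 1 of the 17 (Apobec1) and in 1 of the 8 (Mefv). The full inverted repeat of that hexamer was found in 1 promoter of the whole table and in none of these genes. A match is a description of the letters and not of binding.

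No p53 target other than Ccng1 passed. Of 22 tested genes in that list, 1 passed the threshold and no other had an unadjusted p under 0.05. The list's median log2 change was 0.05 against 0.03 for all genes. Cdkn1a, the p21 inhibitor of cyclin-dependent kinases, changed by -0.13 (adjusted p 0.871), and a second probe for it gave 0.27, the opposite sign. Mdm2, the ubiquitin ligase of p53, changed by 0.12 (adjusted p 0.80), and Bbc3, a cell death gene, by 0.26 (adjusted p 0.444).

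Pole3, Endog and Apobec1, which act on DNA or RNA, also rose. Pole3, a small subunit of DNA polymerase epsilon, rose by 0.58 ± 0.0983 (SE; adjusted p 0.0464), from between 10.72 and 10.98 in controls to between 11.37 and 11.57. A separate probe for Pole3 gave 0.34 ± 0.135 (SE), and Pole3 passed in 8 of 25 alternatives. Endog, a nuclease of mitochondria, rose by 0.61 ± 0.103 (adjusted p 0.0456) and also passed in 8 of 25. Apobec1, the enzyme that edits apolipoprotein B RNA, rose by 0.78 ± 0.11 (adjusted p 0.0249), or 1.71-fold. It was at 8.27, 8.08, 8.06 and 8.05 in controls and at 9.05, 8.71, 9.0 and 8.81 after betamethasone, so the groups were clearly apart. Of the 39 tested genes of cell cycle and mitosis none passed the threshold. Before adjustment 6 higher and 1 lower had a p under 0.05 (17.9%, against 11.7% of all genes).

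The 4 HMGB1 copies printed above that passed the threshold all rose. LOC690521, described in the array files as similar to high mobility group protein B1, was at 10.52, 10.51, 10.35 and 10.18 in controls and at 11.45, 11.23, 11.34 and 11.15 after betamethasone. Its log2 change was 0.90 (adjusted p 0.0126). ENSRNOT00000046984 changed by 0.98 (adjusted p 0.0126), ENSRNOT00000051642 by 0.87 (adjusted p 0.0249) and A_64_P123549 by 0.80 (adjusted p 0.0327). In all of them the groups did not overlap. The probe of Hmgb1-ps33 was brighter, from 12.59 to 12.86 in controls and from 13.34 to 13.52 after betamethasone, and changed by 0.70 ± 0.133 (SE). It did not pass in the 12-sample model but passed in the 8-sample one (adjusted p 0.0283).

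The probes of these copies are so alike that they can bind the same RNA. ENSRNOT00000051642 and A_64_P123549 share 55 of 60 bases, and A_64_P123549 shares 54 of 58 with Hmgb1-ps33. So these 4 of the 28 higher calls are not independent measurements, and which copy the signal came from cannot be told apart. At least 1 more higher call belongs with them. ENSRNOT00000035711 (0.79, adjusted p 0.0249) shares an unbroken run of 29 bases with the probe A_64_P040930, which shares a run of 25 with the Hmgb1 probe printed below. ENSRNOT00000030194 (0.76, adjusted p 0.0312) reads like the HMG box of the same family, a stretch that none of the Hmgb1 probes kept here covers, so the number of higher calls from such copies may be 6. The parent gene had 3 probes that disagreed. The probe over its coding stretch at chr16:37462642-37462701, shown next, changed by 0.68 ± 0.182 (SE; adjusted p 0.189), and its samples ranged from 11.73 to 12.18 in controls and from 12.46 to 12.78 after betamethasone.
Hmgb1: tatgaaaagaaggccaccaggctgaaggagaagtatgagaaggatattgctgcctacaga
The other probes for Hmgb1 changed by -0.36 ± 0.209 (SE) and -0.41 ± 0.254, and a second probe for Hmgb1-ps33 by -0.25 ± 0.265. Hmgb2 changed by 0.39 and 0.06 at its probes and Hmgb3 by 0.25. Among 21523 probes compared, 7 called probes had a relative with at least 85% identity over 30 or more shared positions, ENSRNOT00000035711, ENSRNOT00000030194 and these 4 included. Not every relative of the 4 copies rose as far. The probe of LOC100365478 shares 40 of 46 bases with ENSRNOT00000051642 and changed by -0.05 ± 0.175 (SE). A_64_P130375 shares 36 of 42 with A_64_P123549 and changed by 0.37 ± 0.145 (SE).

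Hmgb4, a member of the same protein family known from the testis, was well above background in the betamethasone group and not in the controls. It read 7.25, 7.22, 7.22 and 7.17 in controls, where no sample was well above background, and 7.98, 8.04, 8.57 and 8.38 after betamethasone, where all 4 were. The estimated change was 2.04-fold (adjusted p 0.0187 by limma). A probe was tested where 3 of the 4 samples of a group were well above background. Of the control and betamethasone groups only the second met that rule here, so the p of this probe is not separate support. The estimate was the same where each control was raised to the dimmest reading well above background on that array, if that was brighter. The size holds for these settings only, since the log2 change ran from 0.52 to 4.49 over the alternatives. The 4 ketamine samples read 7.28 to 7.31, close to the controls, and they had the same prenatal betamethasone and the same slide as the betamethasone samples. Capza3, a testis-type subunit of the actin-capping protein, followed the same order: 7.21 to 7.25 in controls, 7.70 to 7.81 after betamethasone, and 7.11 to 7.24 with ketamine. Its estimated change was 1.44-fold (adjusted p 0.0255 by limma), and the sign turned to -0.14 when each array was set to an equal median intensity. For Capza3 too, of the control and betamethasone groups only the second met the rule for testing.

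In all, 19 genes (0.102%) were well above background in every betamethasone sample and in no control, and 4 (0.0215%) the other way round. The flag did not follow intensity alone. Tcea3, with a log2 change of 0.04, had it at 7.35 in betamethasone sample 4 but not at 7.43 to 7.55 in controls. Slide and scanner software differed between the groups and cannot be told apart from the treatment in these counts. The largest estimate with a symbol among the 19 belonged to Cavin1, a coat protein of caveolae, at 2.12-fold. It was not past the threshold (adjusted p 0.350 by limma), and the interval for its log2 change was 0.16 to 2.00. Its betamethasone samples were spread from 7.30 to 9.45, and its controls lay between 7.32 and 7.44. Gpr143, a receptor of pigment cells, had an estimate of 1.63-fold (adjusted p 0.591), with an interval for the log2 change of -0.31 to 1.72. Sash3, an adaptor protein of lymphocytes, had an estimate of 1.42-fold (adjusted p 0.107). The opposite case with a symbol was Ppp1r27, a regulator of protein phosphatase 1, with an estimated 1.23-fold less after betamethasone (adjusted p 0.246).

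RNA helicases and nuclear RNA factors moved in both directions. Ddx56, a helicase of ribosome assembly in the nucleolus, was at 10.38, 10.38, 10.42 and 10.46 in controls and at 11.40, 11.30, 11.31 and 11.29 after betamethasone. It rose by 0.92 ± 0.122 (SE; adjusted p 0.0214), or 1.89-fold, and its spot on 1 control array lay in an area of uneven signal. Dhx9, also called RNA helicase A, was at 10.34, 10.58, 10.64 and 10.64 in controls and at 9.52, 9.59, 9.68 and 9.64 after betamethasone. It fell by 0.94 (SE 0.146; adjusted p 0.0312), to 0.52 of the control level. The members of the family thus did not share a direction. Of the 41 tested DEAD and DEAH box helicases, 2 passed the threshold, and 7 higher and 4 lower had an unadjusted p under 0.05, which is 26.8% against 11.7% of all genes. Ddx25 changed by -0.72 (adjusted p 0.208) and Dhx36 by 0.37 (adjusted p 0.208).

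Cd2bp2, a protein of the spliceosome, rose by 0.90 ± 0.131 (adjusted p 0.0249). Its controls were spread, at 9.54, 9.51, 9.75 and 9.99, and its betamethasone samples were at 10.42, 10.63, 10.57 and 10.77. Tcf3, a basic helix-loop-helix transcription factor, rose by 0.50 ± 0.0833 (adjusted p 0.0456), the smallest change that passed. A separate probe for Tcf3 gave -0.12 ± 0.0922 (SE), so the direction rests on the probe used, and Tcf3 passed in 6 of 25 alternatives, the fewest of the named genes.

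In glutamate signalling 1 receptor passed. Grm4, the presynaptic metabotropic glutamate receptor mGluR4, was at 12.23, 12.51, 12.45 and 12.67 in controls and at 11.70, 11.80, 11.82 and 11.84 after betamethasone. All betamethasone samples were lower than every control. It fell by 0.68 (SE 0.102; adjusted p 0.0276), to 0.626 of the control level. Another probe for Grm4, which overlaps the first by 15 bases at chr20:5627750-5627809 of rn4, changed by -0.54 ± 0.163 (SE), and there the groups overlapped. The main Grm4 probe lies at chr20:5627795-5627854, and its call was kept in 9 of 25 alternative settings. Of the 8 metabotropic glutamate receptors, 4 were estimated higher and 4 lower, and no other member passed.

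Rgs12, a regulator that speeds the shut-off of G-protein signals, rose by 0.62 ± 0.0814 (SE; adjusted p 0.0202). Its values were 12.96, 12.88, 13.01 and 12.87 in controls and 13.52, 13.50, 13.58 and 13.60 after betamethasone. The groups were separated by more than the range within either of them. With ketamine the change from control was 0.57 (adjusted p 0.0324).

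No ionotropic glutamate receptor or auxiliary protein passed among the 26 tested. Before adjustment 1 higher and 3 lower had a p under 0.05 (15.4%, against 11.7% of all genes). Neto1, an auxiliary subunit of kainate receptors, changed by -0.77 (adjusted p 0.137), and Grin2a, the NMDA receptor subunit GluN2A, by -0.52 (adjusted p 0.267). In the model of only the 8 samples Neto1 had an adjusted p of 0.0106. The list's median was -0.02, against 0.03 for all genes. Likewise 0 of 17 tested glutamate synthesis and transport genes passed.

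GABA genes did not pass either. The 17 tested GABA receptor genes had a median of -0.04, which turned to 0.05 when the arrays were set to an equal median intensity. The GABA-B subunit Gabbr2 changed by -0.86 (adjusted p 0.202). The 11 genes of GABA synthesis and transport were lower in 8 cases, with a median of -0.12, but that median was 0.11 on the processed signals. None of the 11 had an unadjusted p under 0.05.

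Ion channel genes showed no call. Voltage-gated calcium channels were estimated lower in 11 of 16 tested, with a median of -0.14. That median remained below 0 in the 20 alternatives run on list medians (-0.29 to -0.04). The sign turned at a second probe for Cacna1a (-0.27 and 0.09), Cacna1b (-0.32 and 0.08) and Cacnb1 (-0.14 and 0.32). It was kept for Cacna1c, Cacna1i and Cacnb4, which were lower, and for Cacna1e and Cacna1g, which were higher. Of those 16 genes, 1 higher and 2 lower had an unadjusted p under 0.05 (18.8%, against 11.7% of all genes). Among 12 sodium channel genes 8 were estimated lower. Scn2a, the main sodium channel of young cortical neurons, changed by -0.60 (adjusted p 0.111), from 14.20, 14.24, 13.79 and 14 in controls to 13.39, 13.39, 13.56 and 13.49. Scn3b had the lowest estimate, -3.01, but a standard error of 1.39, because its betamethasone samples read 14.70, 14.84 and 8.38 with 1 missing. Of 82 potassium and HCN channel genes 2 higher and 6 lower had an unadjusted p under 0.05 (9.76%). Kcnq3, a subunit of the M-current, changed by -0.65 (adjusted p 0.201).

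Synapse structure lists also held no call. Among 58 synaptic vesicle genes 3 higher and 1 lower had an unadjusted p under 0.05 (6.9%, against 11.7% of all genes). Among 38 genes of the postsynaptic density 1 higher and 5 lower did (15.8%). Camk2n1, an inhibitor of CaMKII, changed by -0.89 (adjusted p 0.244, and 0.0359 in the 8-sample model). Of the 37 tested genes linked to infantile spasms and epileptic encephalopathy, 13 were estimated higher and 24 lower with none past the threshold. Their median of -0.05 turned to 0.09 under an equal median intensity.

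Immediate early genes, which neurons switch on within minutes of activity, were estimated higher in 30 of 43 tested. None passed the threshold in the 12-sample model, while 6 higher and 0 lower had an unadjusted p under 0.05 (11.7% of all genes did in either direction). Arc, a synaptic plasticity gene, was at 11.93, 11.65, 11.58 and 11.89 in controls and at 12.70, 12.48, 12.69 and 12.81 after betamethasone, without overlap. Its log2 change was 0.91 ± 0.217 (SE; adjusted p 0.141), and its adjusted p was 0.0311 in the 8-sample model. The Arc spot on 1 control array lay in an area of uneven signal. Nr4a1 changed by 0.66 (adjusted p 0.157) and Fos by 0.53 (adjusted p 0.468). The list's median was 0.09, and it lay above 0 in all 20 alternatives run on list medians, between 0.05 and 0.25.

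**Figure D2:**
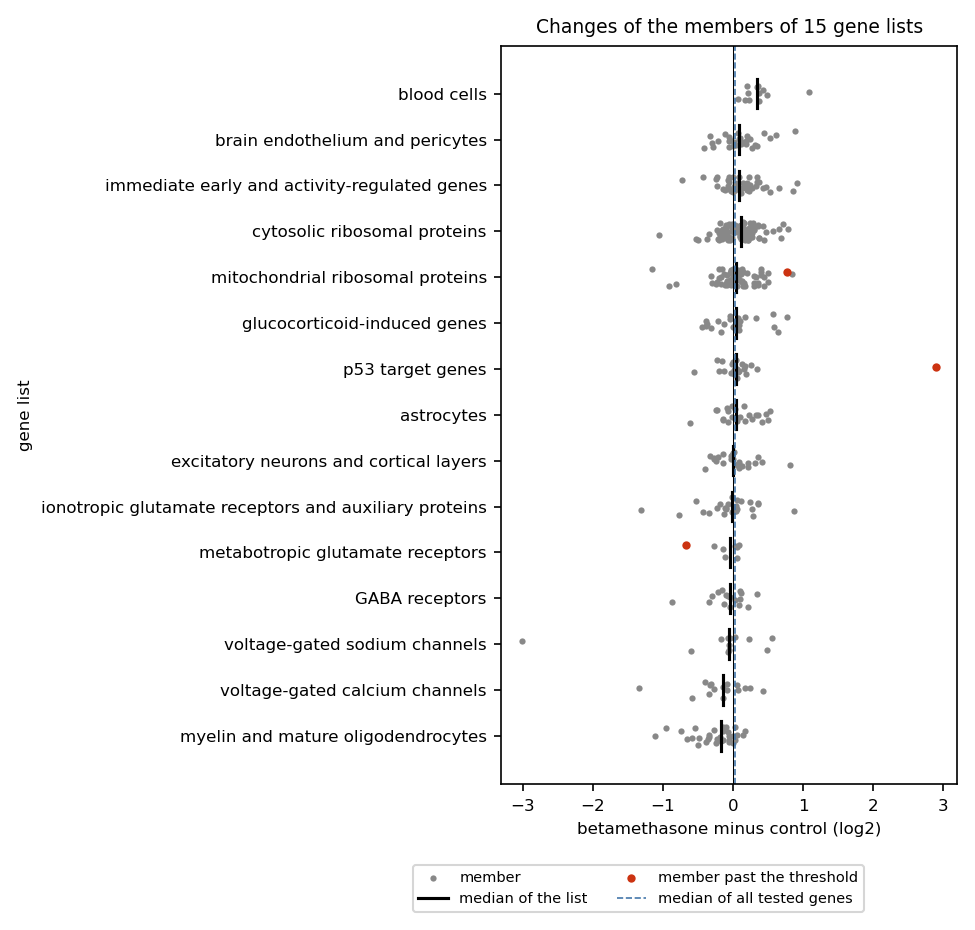
Log2 change (betamethasone minus control, x axis) of each tested member of 15 gene lists (dots; members past the threshold in red), with the median of each list (bar) and the median of all tested genes (dashed line, 0.03). The medians run from -0.18 for myelin genes to 0.35 for blood cell genes, and Ccng1, Grm4 and Mrps7 are the members past the threshold.

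No known target of the glucocorticoid receptor in the list used here passed the threshold at postnatal day 15. Of 24 tested glucocorticoid-induced genes 14 were estimated higher and 10 lower, with a median of 0.04 and no call. Before adjustment 3 higher and 1 lower had a p under 0.05 (16.7%, against 11.7% of all genes). Fkbp5, the chaperone that limits receptor activity, changed by 0.04 (adjusted p 0.968). Tsc22d3, known as GILZ, changed by -0.38 (adjusted p 0.748), and Sgk1, a kinase of ion transport, by 0.06 (adjusted p 0.926). The member nearest to the threshold was Nfkbia, the inhibitor of NF-kappaB, at 10.25, 10.23, 10.29 and 10.59 in controls and 11.14, 10.89, 11.03 and 10.90 after betamethasone (0.65 ± 0.146 SE, adjusted p 0.119). The glucocorticoid receptor gene Nr3c1 changed by -0.35 (adjusted p 0.499) and the mineralocorticoid receptor gene Nr3c2 by -0.36 (adjusted p 0.413).

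Among the 17 tested corticosteroid receptors and steroid enzymes 1 passed. Cyp11b1, the enzyme that makes the last step of corticosterone, rose by 0.72 ± 0.121 (SE; adjusted p 0.0456), or 1.65-fold. It was at 9.59, 9.35, 9.23 and 9.14 in controls and at 10.15, 10.09, 9.93 and 10 after betamethasone. The gap between the nearest samples of both groups was smaller than the range of the controls. Its neighbour in function, the aldosterone synthase gene Cyp11b2, changed by 0.22 (adjusted p 0.392), and Tspo, the cholesterol-binding protein of the outer mitochondrial membrane, by 0.59 (adjusted p 0.317).

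Single genes of mitochondria and metabolism passed in both directions, with Ado and Slc44a2 lower. Glo1, glyoxalase 1, which removes the toxic sugar product methylglyoxal, was at 12.49, 12.35, 12.58 and 12.31 in controls and at 13.29, 13.22, 13.21 and 13.20 after betamethasone. It rose by 0.80 ± 0.0944 (SE; adjusted p 0.0126), or 1.74-fold, and passed in 18 of 25 alternatives. The betamethasone samples were all high and close together. With ketamine its change from the same controls was 0.79 (adjusted p 0.0156). Of the 15 tested genes of the pyruvate dehydrogenase and glyoxalase list it was the only call. Pdk1, a kinase that shuts pyruvate dehydrogenase down, changed by 0.75 ± 0.134 (adjusted p 0.0596) and passed in the 8-sample model (adjusted p 0.0227). The median of this list was 0.17, and it lay above 0 in the 20 alternatives run on list medians (0.03 to 0.48).

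Mrps7, a protein of the small mitochondrial ribosome subunit, rose by 0.77 ± 0.115 (adjusted p 0.0255). Its controls were at 11.67, 11.84, 11.47 and 11.45 and its betamethasone samples at 12.32, 12.52, 12.27 and 12.39. It was the only call among 70 tested mitochondrial ribosomal genes, of which 12 higher and 1 lower had an unadjusted p under 0.05 (18.6%, against 11.7% of all genes). Mrpl53 was next, at 0.50 (adjusted p 0.119). Coq7, a hydroxylase of ubiquinone synthesis, rose by 0.70 ± 0.101 (adjusted p 0.0249), and its betamethasone samples lay between 10.54 and 10.61 against 9.64 to 10.04 in controls. Nuclear subunits of oxidative phosphorylation held no call: 2 higher and 7 lower of 82 had an unadjusted p under 0.05 (11%), and Atp5f1d was nearest, at 0.73 (adjusted p 0.088).

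Fabp3, a fatty acid carrier, rose by 0.66 ± 0.103 (adjusted p 0.0312). The controls fell into their arrays, with 12.33 and 12.33 on the one and 12.12 and 11.98 on the other, and the betamethasone samples lay between 12.83 and 12.87. Ado, a thiol dioxygenase that makes hypotaurine from cysteamine, fell by 0.55 (SE 0.0917; adjusted p 0.0456). It was at 9.20, 9.20, 9.24 and 9.27 in controls and at 8.78, 8.57, 8.73 and 8.61 after betamethasone. Slc44a2, a choline transporter-like protein, fell by 0.70 (SE 0.116; adjusted p 0.0456), but a separate probe for it gave 0.24 ± 0.156 (SE). It passed in 7 of 24 alternatives, where its change ran from -1.37 to -0.23, and its spot on 1 control array lay in an area of uneven signal. Solute carriers as a whole had a median of 0.02 over 276 tested, with Slc44a2 the only call.

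Cytosolic ribosomal proteins had a median of 0.12 over 91 tested genes, and that median lay above 0 in the 20 alternatives run on list medians (0.01 to 0.60). None passed, and 12 higher and 3 lower had an unadjusted p under 0.05 (16.5%, against 11.7% of all genes). Rpsa changed by 0.68 (adjusted p 0.123) and, in the other direction, Rpl14 by -0.36 (adjusted p 0.216). Probes of ribosomal protein genes can also bind the many processed copies of these genes.

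Genes of protein breakdown and membrane sorting held the largest falls among the named genes past the threshold, those of Chmp4bl1 and Fbxo10. Fbxo10, the substrate-binding part of an SCF ubiquitin ligase, was at 10.49, 10.90, 10.77 and 10.81 in controls and at 9.06, 9.28, 9.59 and 9.64 after betamethasone. It fell by 1.35 (SE 0.168; adjusted p 0.0164), to 0.392 of the control level, and passed in 20 of 25 alternatives. The highest betamethasone sample was well below the lowest control. It was the only call among 48 tested F-box genes, whose median was 0.07. Wdsub1, a WD-repeat protein with a U-box, rose by 0.60 ± 0.086 (adjusted p 0.0249). Chmp4bl1, a gene similar to the ESCRT-III subunit Chmp4b, had 3 usable controls at 12.62, 13.18 and 13.33 and betamethasone samples at 11.20, 10.98, 11.02 and 10.99. It fell by 1.95 (SE 0.213, n = 3 and 4; adjusted p 0.0126), to 0.259 of the control level. Of 24 tested ESCRT genes it was the only call. Among 60 tested Rnf genes none passed, and Rnf126, a RING ubiquitin ligase, was nearest at -0.98 (adjusted p 0.0515), with controls from 12.03 to 12.41 and betamethasone samples from 10.94 to 11.40.

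Of the cytoskeleton genes, Map7, a microtubule protein that recruits kinesin-1, was at 10.31, 10.12, 10.23 and 10.30 in controls and at 9.31, 9.47, 9.47 and 9.41 after betamethasone. It fell by 0.82 (SE 0.134; adjusted p 0.0419). In the ketamine samples it read 10.27, 10.29, 9.90 and 9.85, with a change from control of -0.16 (adjusted p 0.59). Cstpp1, a protein of centriolar satellites that acts in tubulin polyglutamylation, rose by 0.64 ± 0.108 (adjusted p 0.0456). Its betamethasone samples spanned only 13.10 to 13.14, against 12.34 to 12.66 in controls.

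Mefv, the gene of pyrin, an inflammasome sensor of white blood cells, fell by 0.98 (SE 0.123; adjusted p 0.0164), to 0.507 of the control level. It was dim, at 8.62, 8.88, 8.78 and 8.81 in controls and at 7.90, 7.73, 7.69 and 7.84 after betamethasone. No other of 27 tested cytokine and inflammasome genes passed. Tmigd1, Tmco5a and Tmco6, genes of membrane or coiled-coil proteins, passed as well. Tmigd1, an adhesion protein of epithelia, fell by 0.78 (adjusted p 0.0255), Tmco5a fell by 0.79 (adjusted p 0.0249) and Tmco6 rose by 0.55 (adjusted p 0.0464), all 3 with dim probes that did not exceed 9.25 in any sample. Or13p4, an olfactory receptor gene, was at 7.50, 7.72, 7.54 and 7.55 in controls, of which 2 of 4 were well above background, and at 9.38, 9.17, 9.32 and 8.98 after betamethasone. It rose by an estimated 1.64 ± 0.233 (SE, adjusted p 0.0249 by limma), a size that ran from 1.49 to 3.90 over the alternatives. That size is uncertain because 2 controls were not well above background. Of the control and betamethasone groups only the second met the rule for testing, so the p is not separate support. Or13p4 was the only call among 245 tested olfactory and vomeronasal receptor genes of 1338 on the array. The family has low signal in this tissue and many near copies.

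Among the 17 calls without a symbol, A_64_P010860 had the lowest adjusted p, 6.24e-05. It was at 10.42, 10.45, 10.49 and 10.66 in controls and at 8.52, 8.31, 8.43 and 8.39 after betamethasone, and fell by 2.09. A_64_P150585, at chr13:108868563-108868622 of rn4, fell by 1.30 (adjusted p 8.50e-05), with controls between 10.10 and 10.19 and betamethasone samples between 8.79 and 8.92. Both changes exceeded the range within either group many times over. The ketamine group differed from the same controls by -2.21 and -1.27 at these probes. Their genes were not named in the tables used here.

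**Figure D3:**
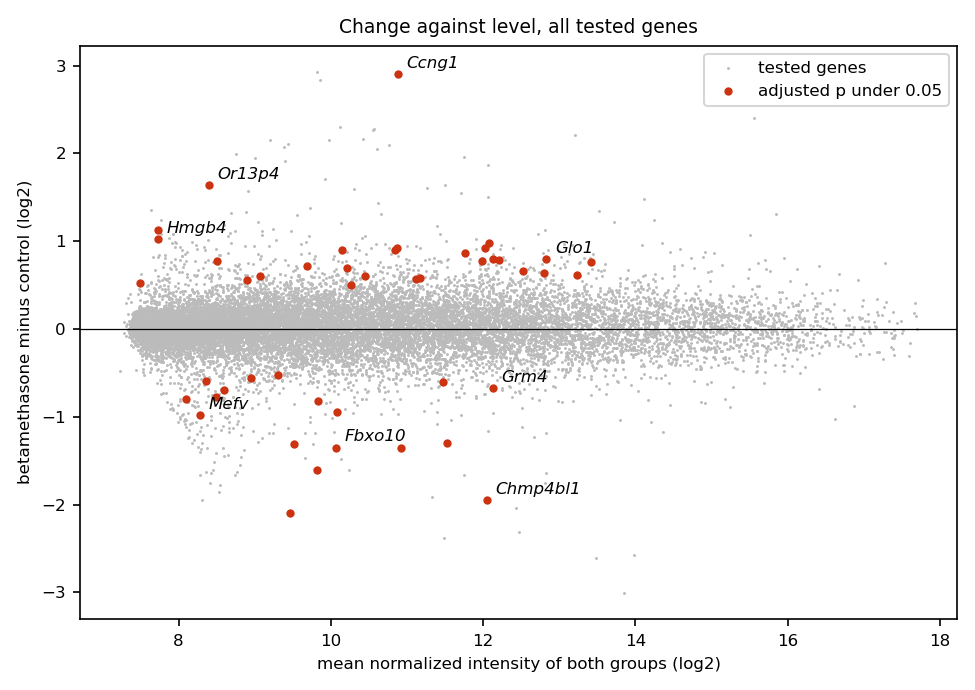
Log2 change (betamethasone minus control, y axis) against the mean normalized intensity over the 8 samples (log2, x axis) for all 18645 tested genes (grey) with the 46 past the threshold marked. Ccng1 is the highest of the marked genes with a change of 2.90, unmarked genes reach as far, and the marked genes are spread over bright and dim genes, with 4, 11, 17 and 14 of them in 4 equal bins of genes from dim to bright.

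Large estimates were often not calls. A log2 change beyond 1 in size was estimated for 172 genes, 69 higher with 4 called and 103 lower with 7 called. Of the lower ones, 57 (55.3%) had a spot in an area of uneven signal on a control array, and of the higher ones 28 (40.6%), against 6.14% of all tested genes and 2 of the 46 called. When such spots were left out, 93 genes passed, 43 of the 46 among them. The share of guanine and cytosine in the probe also moved with the direction: the median was 45% over all tested, 42.5% in the higher calls and 36.7% in the lower ones. In probes under 35% the median log2 change of all 332 genes was -0.07, and between 50% and 55% it was 0.07. The part of probe composition in the calls was not tested.

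**Figure D4:**
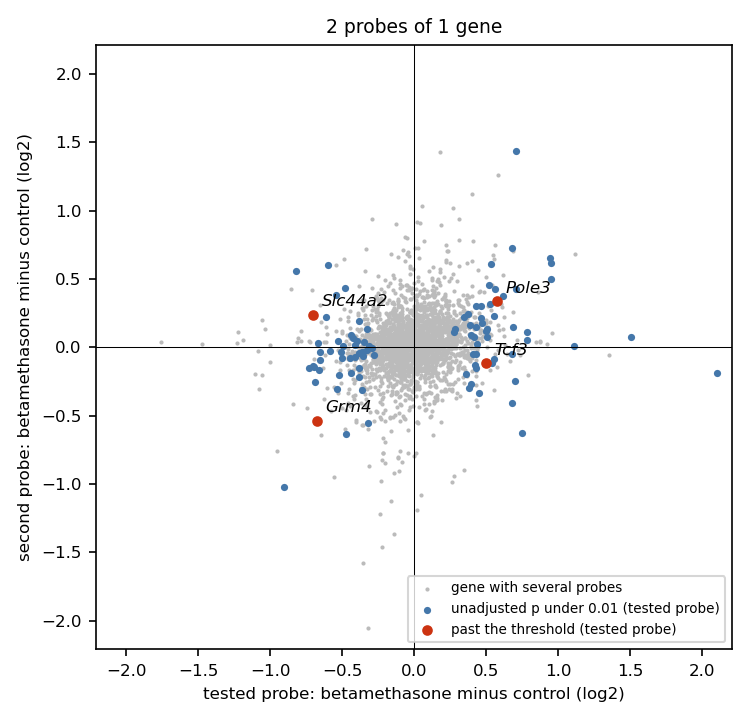
Log2 change of a gene's tested probe (x axis) against that of its other probe (y axis), for genes with more than 1 probe, with the probes of called genes marked. The points of Pole3 and Grm4 share a sign on both axes, and those of Tcf3 and Slc44a2 do not.

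A measure that does not rest on the same spot is the change seen by another probe of the gene. Of 2572 genes with several probes, 55.5% had the same sign at the next probe. Among genes with an unadjusted p under 0.05 it was 63.8% of 337, and under 0.01 it was 65.6% of 96. Of the 4 called genes with another probe, Pole3 and Grm4 had the same sign and Tcf3 and Slc44a2 the opposite one. The other 42 called genes rested on 1 probe each.

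Marker lists of other cell types were read beside the calls. Myelin genes, made by mature oligodendrocytes, were estimated lower in 26 of 32 tested with a median of -0.18, which lay below 0 in all 20 alternatives run on list medians (-0.34 to -0.11). None passed, and 0 higher and 2 lower had an unadjusted p under 0.05 (6.25%, against 11.7% of all genes). The mean level of the list was 9.61 to 9.93 in the controls and 9.37 to 9.66 in the betamethasone samples, so the ranges overlapped. Cldn11, a tight-junction protein of myelin, changed by -1.11 ± 0.395 (SE; adjusted p 0.311), but its controls split by array into 8.60 and 8.48 against 10.07 and 10.44. Mag, an adhesion protein of myelin, changed by -0.95 (adjusted p 0.409) and Mbp by -0.66 (adjusted p 0.698).

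Blood cell genes were estimated higher in 12 of 12 tested, with a median of 0.35 and none past the threshold. Their mean level ran from 10.82 to 11.59 in controls and from 11.11 to 12.35 after betamethasone. Alas2, the heme synthesis enzyme of red cells, was at 13.19 in betamethasone sample 1 against 10.65 to 11.18 in controls, and without that sample the list's median was -0.001. Hbb changed by 0.23. Astrocyte genes had a median of 0.05 over 24 tested, 14 estimated higher and 10 lower, with changes from -0.61 to 0.53. An unadjusted p under 0.05 was found for 3 higher and 1 lower (16.7%, against 11.7% of all genes). S100b changed by 0.53 (adjusted p 0.239) and Slc1a2 by 0.36 (adjusted p 0.267). Microglia genes had a median of 0.03 over 25, and meningeal and collagen genes 0.02 over 46. Endothelial and pericyte genes had a median of 0.08 over 29, 18 estimated higher and 11 lower, with Egfl7 at 0.53 (adjusted p 0.274). The part of these cell types in the calls was not tested.

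**Figure D5:**
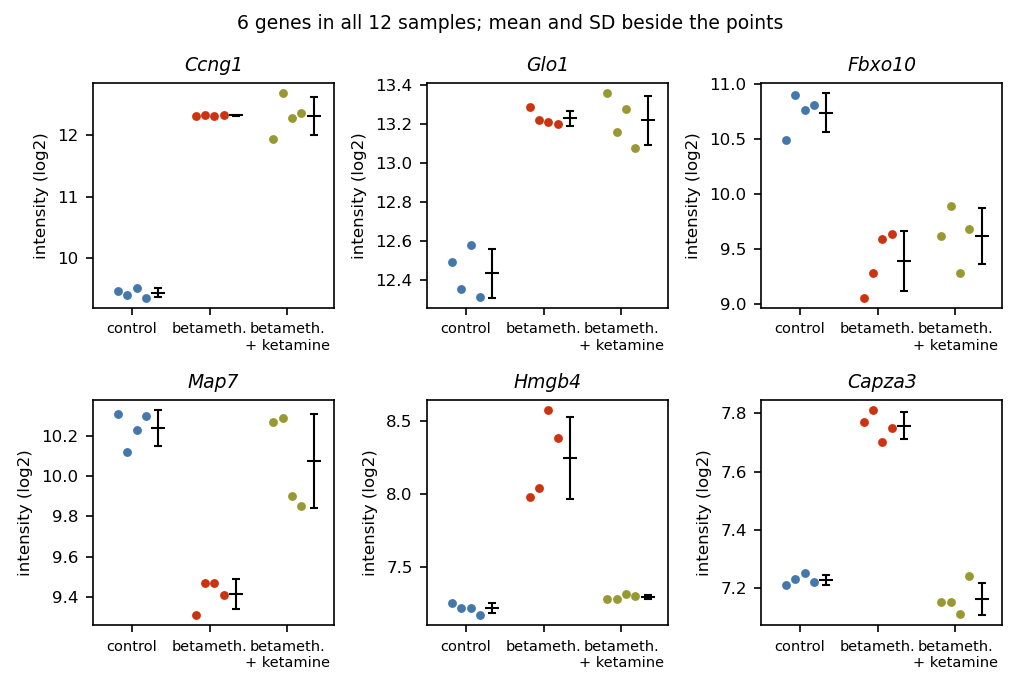
Normalized intensity (log2, y axis) of Ccng1, Glo1, Fbxo10, Map7, Hmgb4 and Capza3 in the 4 control, 4 betamethasone and 4 betamethasone with ketamine samples (points), with the mean and SD of each group. Ccng1, Glo1 and Fbxo10 lie away from control in both betamethasone groups, while Hmgb4 and Capza3 in the ketamine group lie with the controls and Map7 lies close to them.

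The ketamine group shares the prenatal exposure and the control samples, so its change from control is not an independent repeat and is given only side by side. For Ccng1 it was 2.89 (adjusted p 0.00039) beside 2.90, with ketamine samples at 11.94, 12.69, 12.29 and 12.36. For Fbxo10 it was -1.13 (adjusted p 0.0429) beside -1.35, and for Mefv -0.98 (adjusted p 0.017) beside -0.98. For Coq7 it was 0.70 (adjusted p 0.0339) beside 0.70. The changes from control were further apart in other genes. For Slc44a2 it was -0.25 (adjusted p 0.372) beside -0.70, for Grm4 -0.42 (adjusted p 0.174) beside -0.68, and for Or13p4 1.11 (adjusted p 0.133) beside 1.64. The difference between the 2 betamethasone groups was not tested here.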

How the data were processed

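RNA from the 12 samples was hybridised to 6 Agilent 2-colour arrays, 2 samples of 1 group on each. The scanner files hold linear spot intensity values for both channels, deposited by the authors without normalization between arrays; per the file headers they were made with Agilent Feature Extraction 11.5.1.1 (controls) and 11.0.1.1 (betamethasone arrays), and the submitters' processing notes name 10.7.3.1. The deposited value table holds a linear ratio to the column's median (each median is 1, per its values), used only as an alternative. Its columns for control samples 1 and 2 matched the scanner values of control samples 3 and 4 and the reverse, which does not change the group.

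Intensities were background-corrected with normexp (offset 50), normalized with loess within arrays, control spots at weight 0, and with quantiles of the average intensity between arrays, in R 4.3.3 with limma 3.58.1 and statmod 1.5.0. Outlier-flagged spots were left out, spots of a probe were averaged on the log2 scale, and a probe was kept where 3 of the 4 samples of a group were well above background. The brightest probe stood for a gene, and at least 3 values per group were needed, so 605 of the 18645 genes lacked a value in a sample or more. The limma model held 3 groups of 4 with dye as a fixed term and array as a random block (correlation 0.563). Changes are betamethasone minus control, with Benjamini-Hochberg adjustment over all 18645 genes and a threshold of 0.05.

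Of the probe names, 18355 were updated through an accession, 2758 through a symbol and 422 through a synonym in the RefSeq tables, and 8832 kept the file's name. Probe positions are those of the files, in rn4. Promoters are those of RefSeq for GRCr8. The members and lists were chosen with earlier results of these data known. Named genes are all calls with a symbol, the members of each list with the smallest p, the genes above background in 1 group with the largest changes, and cell type markers. The HMGB1 copies and both probes without a symbol were singled out after their values were seen. On simulated data with 50 changed genes of each size, the model recovered 18% at a log2 change of 0.5 and 78% at 1. It recovered 90% at 1.5 and 98% at 2, with 8 false calls among 18645 genes. The simulated noise was drawn from the model's own spread and array correlation, with no slide effect. It therefore does not measure how many calls in the real data are false. Replicate numbers did not pair the samples: correlations of same-numbered deviations were 0.019 to 0.082. The alternatives covered normalization, filters, probe choice, model terms and each sample or array left out. One label field writes the age differently from the titles' P15, which was used.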

Additional observations from a re-analysis of the deposited data

Results flagged for a closer look

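In 57 groups of 4 values, those of the named genes past the threshold, 3 had a sample whose gap to the nearest of the others took up more of the group's range than Dixon's 95% critical value allows. Chance flags about 1 in 20 such groups. For Chmp4bl1, betamethasone sample 1 was at 11.2 and the others lay between 10.98 and 11.02. For Wdsub1, betamethasone sample 3 was at 9.43 and the others between 9.33 and 9.35. For Apobec1, control sample 1 was at 8.27 and the others between 8.05 and 8.08. In all 3 genes the far sample remained on its own group's side of the other group.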

How the results depend on the processing

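The 46 calls became 43 with quantile normalization between channels, 41 of them shared. They became 0 with an equal median intensity per array, 88 on the processed signals at the 75th percentile (24 shared), 15 on the re-centred deposited table (14 shared), 79 without a filter on dim probes (46 shared), 29 with probes above background in all samples of both groups (29 shared), 93 with masked areas left out (43 shared), 246 with only the 8 samples (46 shared), 979 without the array block and 3 with array means as replicates. A mean over probes gave 44 and no dye term 66. Leaving out 1 sample gave 3 to 44. Leaving out an array gave 265 (control samples 1 and 2), 317 (control samples 3 and 4), 15 (betamethasone samples 1 and 2) and 16 (betamethasone samples 3 and 4). The cause of these differences was not tested.

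With the replicate number as a block 28 genes passed, 23 of the 46 among them. The numbers share no pairing (correlations of 0.019 to 0.082), so this says nothing of a paired effect.

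The 3354 genes whose groups did not overlap became 8293 with an equal median intensity per array, and, with fewer samples to overlap, 7495 and 7329 without the control arrays and 5276 and 5218 without the betamethasone arrays. Among the 29 named genes the sign turned once, for Capza3, to -0.14 with an equal median intensity per array. The limits are the signal over background of dim genes such as Hmgb4 and Capza3, the 2 arrays in each group, and slide and scanner software, which cannot be told apart from the prenatal treatment.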
